A study of Mus musculus with 10 samples.

Results

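Oxidative phosphorylation is carried out by 5 protein complexes of the inner mitochondrial membrane. The set described here holds the nuclear genes for their subunits: 85 of the 18901 genes in the expression table, chosen by symbol alone (Nduf, Sdh, Uqcr, Cyc, Cox and Atp5 subunit names, without the Ndufaf assembly factors). It holds 34 genes of complex I, 4 of complex II, 9 of complex III, 19 of complex IV, 15 of complex V, the 2 cytochromes c, and 2 genes (Atp5s and Atp5sl) that carry an Atp5 symbol but are not subunits of the synthase. All 85 reached a value of 10 in 2 or more libraries, the filter for testing. Cyct, Cox7b2 and Cox8c passed it through iPS libraries alone and Cox6a2 through the MEF libraries alone. Those 4 had to differ between these groups, so their differences from iPS cells are given as descriptions, and they support nothing where they enter a count. Subunits encoded by mitochondrial DNA, and the nuclear Ndufs5, Ndufb1 and Cox8b, were not analysed here.

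The study asked how Netrin-1 bears on reprogramming, and these libraries compared iPS cells derived with recombinant Netrin-1 (rNetrin-1) with control iPS cells, incompletely reprogrammed cells and fibroblasts. There were 10 mouse poly(A) RNA-seq libraries of 5 lines, with 2 passages of each: Oct4-GFP mouse embryonic fibroblasts (MEF) at passages 2 and 4, and pre-iPS cells, control iPS cells and rNetrin-1-derived iPS clones 1 and 2 at passages 5 and 25. All lines came from a cross of mf1 and 129 mice. The iPS lines came from Oct4-GFP MEF given Oct4, Sox2, Klf4 and c-Myc retroviruses. The pre-iPS cells, per the study, keep these transgenes on and do not turn on the Oct4-GFP locus. MEF were grown in DMEM with 10% FCS, and iPS cells in KSR with LIF per the labels, so cell state and medium cannot be told apart in any comparison with MEF. The methods also name KSR with 2i and LIF, and gelatin or irradiated MEF as the support, for pre-iPS and iPS cells without saying which library had which, so a difference in medium between those lines was not tested. Each line is 1 clone or culture, so the p-values measure the spread between passages of a line and not between independently derived clones.

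Between 38110410 and 52946856 reads fell on genes in each library. The values in the table are read counts that the authors equalized between libraries with edgeR, in which 1 read is worth 0.888 to 1.18. They do not sum to a common total: the MEF columns sum to 55900000 to 56100000, and those of the other lines to 39700000 to 41900000. Of the markers checked, the 7 fibroblast genes were each higher in MEF than in iPS cells, and the 8 pluripotency genes were each lower. Of all genes, 37.4% were higher and 41.9% lower. Dppa3, a pluripotency gene, passed the filter through iPS libraries alone, so its differences are descriptions. The summed fibroblast markers were at 18750 to 33000 in the iPS libraries against 2757000 to 2903000 in MEF. The MEF libraries also held macrophage markers (summed value 11460 to 11490, against 433 to 1269 in iPS cells). The summed pericyte and smooth muscle markers were at 148800 to 151900 against 8915 to 11870. Most of that sum was Acta2, at 142175 and 139451 in MEF. Of these 8 markers, 6 were higher in MEF than in iPS cells, 1 was lower (Notch3, -0.65) and 1 was not called. Rgs5, among the 6, passed the filter through the MEF libraries alone. Whether such cells were in the culture was not tested. In pre-iPS cells 6 of the 8 pluripotency genes, Dppa3 among them, were lower than in iPS cells, where 20.8% of all genes were.

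As background, complexes I and II pass electrons from NADH and succinate to ubiquinone, complex III passes them to cytochrome c, complex IV passes them to oxygen, and complex V uses the proton gradient so built to make ATP. Most subunits are made in every cell, but complex IV and cytochrome c also have isoforms restricted to certain tissues: Cyct is the cytochrome c of the testis, Cox7b2, Cox8c and Cox6b2 are testis forms, Cox6a2 and Cox7a1 are the heart and skeletal muscle forms, and Cox4i2 is the lung form. Ndufa4l2 is a hypoxia-inducible relative of Ndufa4, a subunit that was named for complex I but is found in complex IV, with which both are counted here. These 8 are called the restricted isoforms in what follows, and the other 77 the common genes. Pluripotent cells are known to rely more on glycolysis than most adult tissues do.

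The largest differences between the lines were in restricted isoforms. Among those not fixed by the filter, the largest was 5.17 on the log2 scale (Ndufa4l2, pre-iPS cells against MEF). Cox6b2 (-1.44) and Cox4i2 (-1.22), in MEF against iPS cells, lay close to the common genes. The common genes differed by at most 1.12 on the log2 scale in any comparison. Cyct, Cox7b2 and Cox8c were read in the iPS lines and at or near 0 in both MEF and pre-iPS cells. Ndufa4l2 and Cox6b2 were high in pre-iPS and iPS cells and low in MEF. Between the iPS lines, and between passages, 1 to 3 of the 85 genes passed the test in each comparison.

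**Figure D1:**
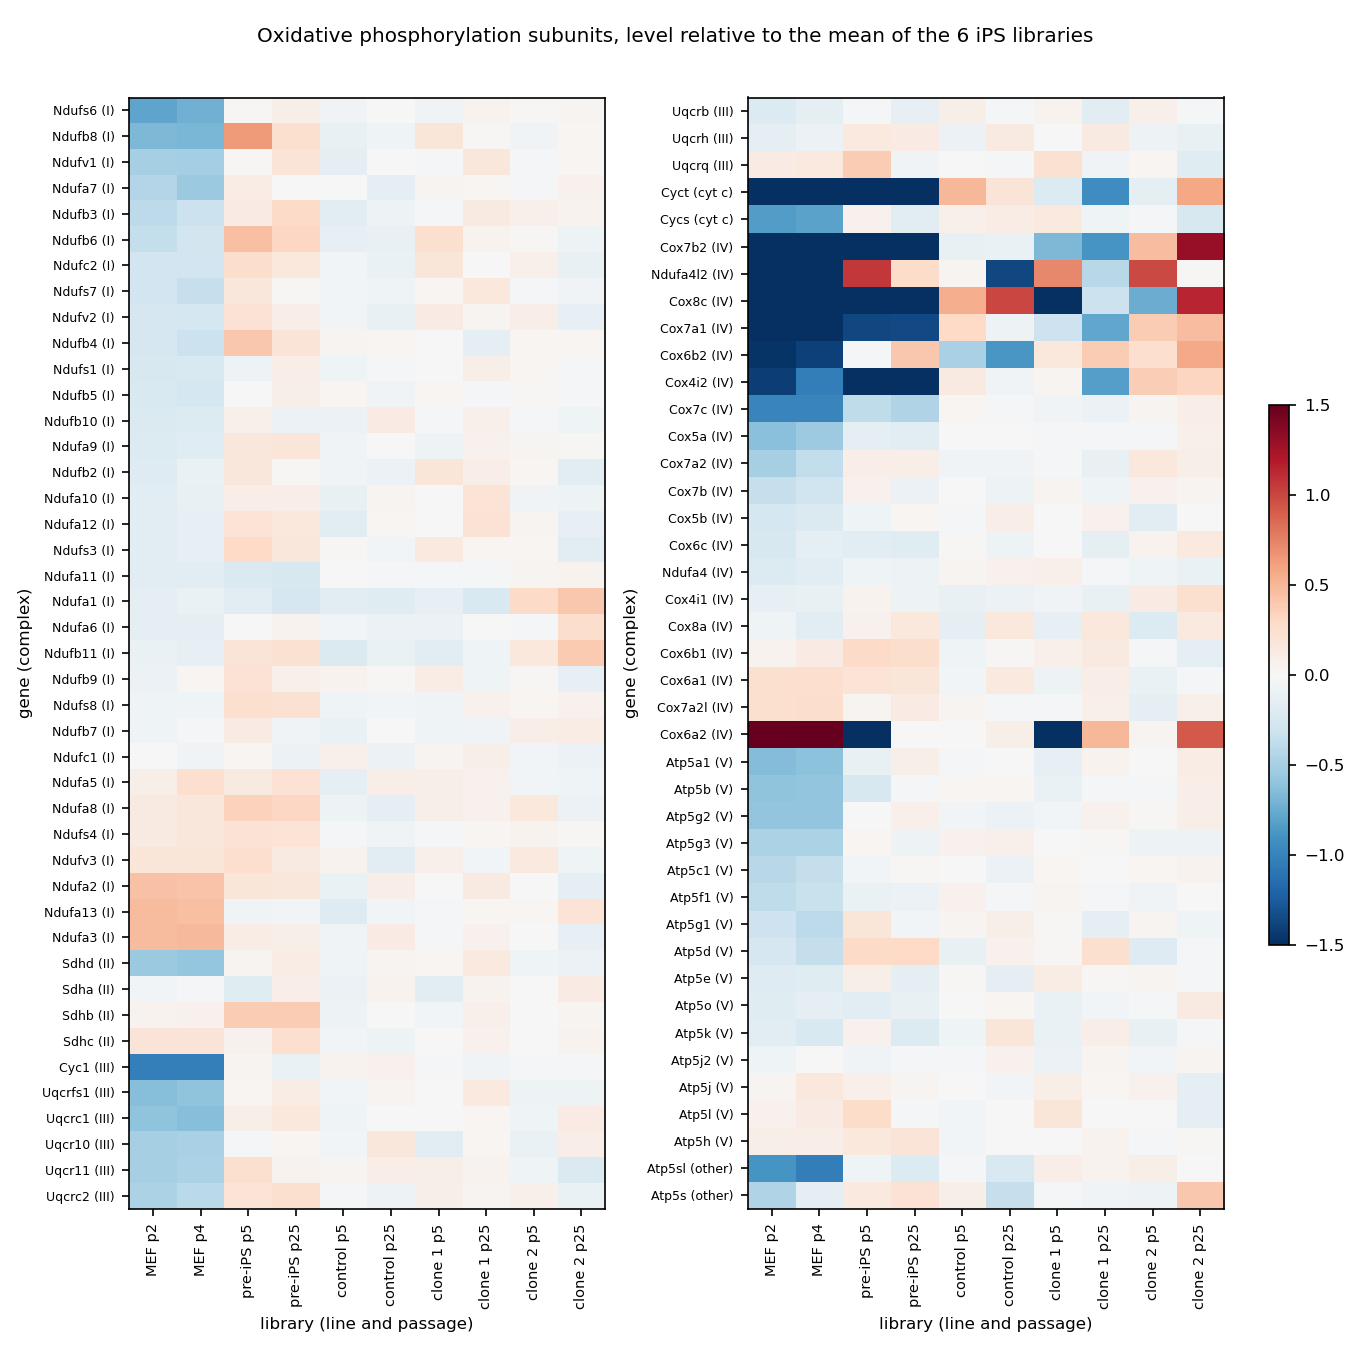
Each row is 1 of 84 genes with its complex in brackets, each column 1 library, and the colour is log2(value + 1) less the mean of the 6 iPS libraries, with colours ending at 1.5 either way. The common genes are pale in the 8 reprogrammed libraries and mostly blue in the 2 MEF libraries, and Cyct, Cox7b2 and Cox8c are dark blue in MEF and pre-iPS alike.

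The promoters of the isoforms that separate the lines are shown beside those of their common partners, since both members of a pair serve the same place in the chain. Of the 85 genes, 69 had a promoter of 300 bases (250 before to 50 after the start) in RefSeq on GRCm38.p6. The capitals mark the NRF1 core GCGCATGC on either strand, a motif of the factor known to bind many respiratory genes. Cyct is at chr2:76360404-76360703 on the minus strand, Cycs at chr6:50566520-50566819 on the minus strand, Cox7b2 at chr5:71548156-71548455 on the minus strand and Cox7b at chrX:106015450-106015749 on the plus strand.
Cyct: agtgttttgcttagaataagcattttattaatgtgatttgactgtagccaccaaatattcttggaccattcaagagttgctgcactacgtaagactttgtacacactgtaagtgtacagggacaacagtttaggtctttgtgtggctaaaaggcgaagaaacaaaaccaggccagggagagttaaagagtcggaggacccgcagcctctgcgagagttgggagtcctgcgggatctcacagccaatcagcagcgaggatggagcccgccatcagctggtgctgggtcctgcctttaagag
Cycs: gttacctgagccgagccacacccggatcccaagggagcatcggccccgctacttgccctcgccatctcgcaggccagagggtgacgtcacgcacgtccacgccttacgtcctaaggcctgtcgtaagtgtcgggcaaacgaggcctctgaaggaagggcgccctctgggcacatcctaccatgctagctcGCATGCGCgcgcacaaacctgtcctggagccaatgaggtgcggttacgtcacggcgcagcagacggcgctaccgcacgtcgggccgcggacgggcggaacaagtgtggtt
Cox7b2: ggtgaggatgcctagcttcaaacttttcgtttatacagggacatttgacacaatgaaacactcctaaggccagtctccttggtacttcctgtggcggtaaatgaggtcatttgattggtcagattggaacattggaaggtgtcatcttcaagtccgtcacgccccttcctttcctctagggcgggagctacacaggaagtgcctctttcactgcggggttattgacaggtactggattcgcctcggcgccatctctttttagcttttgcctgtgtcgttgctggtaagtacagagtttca
Cox7b: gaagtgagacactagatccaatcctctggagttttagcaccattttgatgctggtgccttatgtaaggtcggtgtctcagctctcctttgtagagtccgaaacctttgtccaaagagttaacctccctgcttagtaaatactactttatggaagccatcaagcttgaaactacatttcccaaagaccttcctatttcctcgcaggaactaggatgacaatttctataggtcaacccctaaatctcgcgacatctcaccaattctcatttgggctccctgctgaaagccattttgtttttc
The Cycs promoter held the NRF1 core and 32 CG dinucleotides, while the Cyct promoter held 8 and none of the 4 motifs searched. The promoters of Cox7b2 and Cox7b held 10 and 5 CG dinucleotides and none of the motifs. Across the 69 promoters the median was 19 CG dinucleotides, against 8 in the 27025 promoters of all genes, and against 9 in those of the 4 restricted isoforms that had a promoter (Cyct, Cox7b2, Cox6b2 and Cox7a1). The NRF1 core stood in 11 of the 69 (15.9%, against 3.0% of all promoters), the ETS or GABP motif CCGGAAG in 16 (23.2% against 9.9%), the YY1 motif AAGATGGC in 11 (15.9% against 3.2%) and the motif AAGGTCA of the estrogen-related receptors in 7 (10.1% against 5.4%), each on either strand and with overlaps allowed. None of the 4 was found in the promoters of these 4 restricted isoforms. They were also absent from the promoters of common genes such as Atp5b, Cox5a, Cox7c and Cox7b. The absence is thus not read as particular to the restricted isoforms.

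Cyct, which carries electrons from complex III to complex IV in male germ cells, lies at chr2:76353942-76360450 (mm10). MEF stood at 3.5 and 2.1 at passages 2 and 4, and pre-iPS cells at 8.2 and 8.6 at passages 5 and 25. At those 2 passages control iPS cells stood at 712 and 578, clone 1 at 437 and 265, and clone 2 at 456 and 755. Every iPS library was thus far above the other 4, with no overlap. From the summed reads, the iPS level was 193 times that of MEF (95% exact interval of counting 82.5 to 594, on 5 reads in MEF) and 63.9 times that of pre-iPS cells (39.9 to 110.0, on 17 reads). On the log2(value + 1) scale, which understates the change of low genes, the difference from iPS cells was -7.07 in MEF and -5.75 in pre-iPS cells. Cycs, the cytochrome c of other tissues, was lowest in MEF (4654 and 4761), with pre-iPS cells at 8697 and 7355 and iPS cells between 7021 and 9160. Per kilobase of annotated exon, Cyct made up 14.8% to 35.8% of both cytochrome c transcripts in the iPS libraries, 0.485% and 0.607% in pre-iPS cells and 0.232% to 0.39% in MEF. Of the windows of 50 bases in the Cyct transcripts none is found in another gene, while 28.5% of those of Cycs are shared with 76 other genes, so that its level is the less certain.

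Cox7b2 and Cox8c, testis forms of small complex IV subunits, had the same pattern at lower levels. Cox7b2 (chr5:71442824-71548205) had 1 read in both MEF libraries together and 2 in pre-iPS cells, against values of 72.5 and 73.0 for control iPS, 48.8 and 42.1 for clone 1, and 108 and 195 for clone 2. The ratio of iPS to MEF was 164 with an exact interval of 29.3 to 6480, and that of iPS to pre-iPS was 92.3 (25.4 to 764). Cox8c (chr12:102899316-102900526) had no read in the 4 MEF and pre-iPS libraries. In the iPS lines its values were 23.2 and 32.3 (control), 4.4 and 12.3 (clone 1) and 8.9 and 35.8 (clone 2), at least 11.6-fold higher than in MEF and at least 13.1-fold higher than in pre-iPS cells, against a floor of 3 reads over each group. These intervals and floors cover counting error only. Cox7b, the common partner of Cox7b2, stood at 3950 to 5230 across all 10 libraries, and Cox8a, that of Cox8c, at 7355 to 9453.

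Germ cell genes were also looked at beside these 3 isoforms. All 8 of the germ cell markers listed (Dazl, Ddx4, Sycp3, Sycp1, Mael, Tex101, Stra8 and Hormad1) were lower than in iPS cells in both MEF and pre-iPS cells. Of all genes, 41.9% were lower in MEF and 20.8% in pre-iPS cells. Dazl, Sycp1, Mael, Tex101 and Hormad1 passed the filter through iPS libraries alone, so their differences are descriptions. Ddx4 was at 156 and 169 in MEF, and at 12.2 and 23.0 in pre-iPS cells. The summed value of the 8 was 202 to 204 in MEF, 120 to 173 in pre-iPS cells and 2168 to 7897 in iPS cells. Sycp1 and Tex101 were at 0 in both MEF libraries. Their part in the isoforms' values was not tested. Over the 10 libraries, the genes whose log2 values ran closest to Cyct were 2410003L11Rik (Pearson r = 0.997), Gm13242 (0.997) and Sohlh2 (0.995). For Cox7b2 they were Mcf2 (0.998), Treml2 (0.993) and Slc51a (0.992), and for Cox8c Prame (0.994), Gm44 (0.994) and 4933416C03Rik (0.988). These likenesses are descriptions over libraries that share the same 5 lines.

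Cox7a1, the heart and skeletal muscle form of subunit 7a (chr7:30184144-30186078), rose in steps. MEF stood at 21.2 and 18.0, pre-iPS cells at 102 and 103, control iPS at 326 and 251, clone 1 at 213 and 154, and clone 2 at 345 and 366. The 3 groups did not overlap. The difference from iPS cells was -3.69 ± 0.19 in MEF (limma, adjusted p = 3.17e-07) and -1.36 ± 0.19 in pre-iPS cells (adjusted p = 0.00083), and pre-iPS cells were above MEF by 2.33 ± 0.23 (adjusted p = 2.64e-05). Its partner Cox7a2 was at 2712 and 2948 in MEF and 3528 to 4263 elsewhere, so that per kilobase Cox7a1 made up 1.07% to 1.36% of the pair for MEF, 4.22% and 4.24% for pre-iPS cells, and 7.15% to 13.7% for iPS cells. Its nearest genes over the 10 libraries were Msh6 (r = 0.996), Zfp534 (0.996) and Ung (0.995).

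Cox4i2, the lung form of subunit 4 (chr2:152754173-152765037), was low everywhere. MEF stood at 12.0 and 15.8, pre-iPS cells at 10.2 and 4.8, control at 36.7 and 32.3, clone 1 at 34.6 and 18.5, and clone 2 at 43.6 and 42.1. It was lower in pre-iPS than in iPS cells by -2.10 ± 0.35 (limma, adjusted p = 0.0019). In MEF it was lower by -1.22 ± 0.35 (adjusted p = 0.01), a call that was lost without MEF passage 2 (-1.04) and with quantile normalization (-0.06). Cox4i1, its partner and the bulk of subunit 4, was at 13404 to 17272 in all libraries. Cox6a2, the muscle form of subunit 6a (chr7:128205435-128206387), was the only restricted isoform above iPS cells in MEF, at 16.3 and 10.6 against 0 to 4.5 in the 6 iPS libraries and 0 and 1.9 in pre-iPS cells. Its difference of 2.29 on the log2 scale rests on 24 reads in MEF and 14 in iPS cells, and is a description.

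Skeletal and cardiac muscle markers were also looked at beside these muscle forms. Among skeletal muscle markers, 5 of 8 could be tested, of which 2 were higher and 2 lower in MEF than in iPS cells. Of all genes, 37.4% were higher and 41.9% lower. Myh8, among those higher, passed the filter through the MEF libraries alone, so its difference is a description. Of the 5 cardiac markers 4 were lower in MEF and 4 in pre-iPS cells, where 41.9% and 20.8% of all genes were. Actc1 and Myh6 passed the filter through iPS libraries alone. So did Myh7, apart from a value of 11.5 in pre-iPS cells at passage 25. The differences of Actc1, Myh6 and Myh7 from iPS cells are thus descriptions. The summed value of the 5 was 31.4 to 43.1 in MEF, 125 to 139 in pre-iPS cells and 357 to 680 in iPS cells. Myod1, which defines muscle precursors, was at 0 in MEF and pre-iPS libraries, as was Myog in the latter. The part of such cells in Cox7a1 and Cox6a2 was not tested.

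Cox6b2, the testis form of subunit 6b (chr7:4751792-4753094), did not follow the other testis forms. It was read in every line, with MEF at 440 and 459, pre-iPS cells at 1191 and 1607, control iPS at 866 and 663, clone 1 at 1362 and 1590, and clone 2 at 1447 and 1807. The 2 MEF libraries lay below all others, by -1.44 ± 0.16 against iPS cells (limma, adjusted p = 2.97e-05), while pre-iPS cells lay inside the iPS range (0.18 ± 0.16, adjusted p = 0.377). Ndufa4l2 (chr10:127514967-127517154) spanned a wider range, with MEF at 48.5 and 47.5, pre-iPS cells at 2305 and 1342, control at 1139 and 430, clone 1 at 1824 and 828, and clone 2 at 2192 and 1120. It was lower in MEF than in iPS cells by -4.50 ± 0.44 (adjusted p = 1.63e-05). In pre-iPS cells its difference from iPS cells was 0.67 ± 0.44 (adjusted p = 0.261), and with passage as a replicate block it was called higher there at adjusted p = 0.0033. Per kilobase it made up 1.08% to 1.12% of Ndufa4l2 and Ndufa4 together in MEF and between 7.74% and 33.0% elsewhere.

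**Figure D2:**
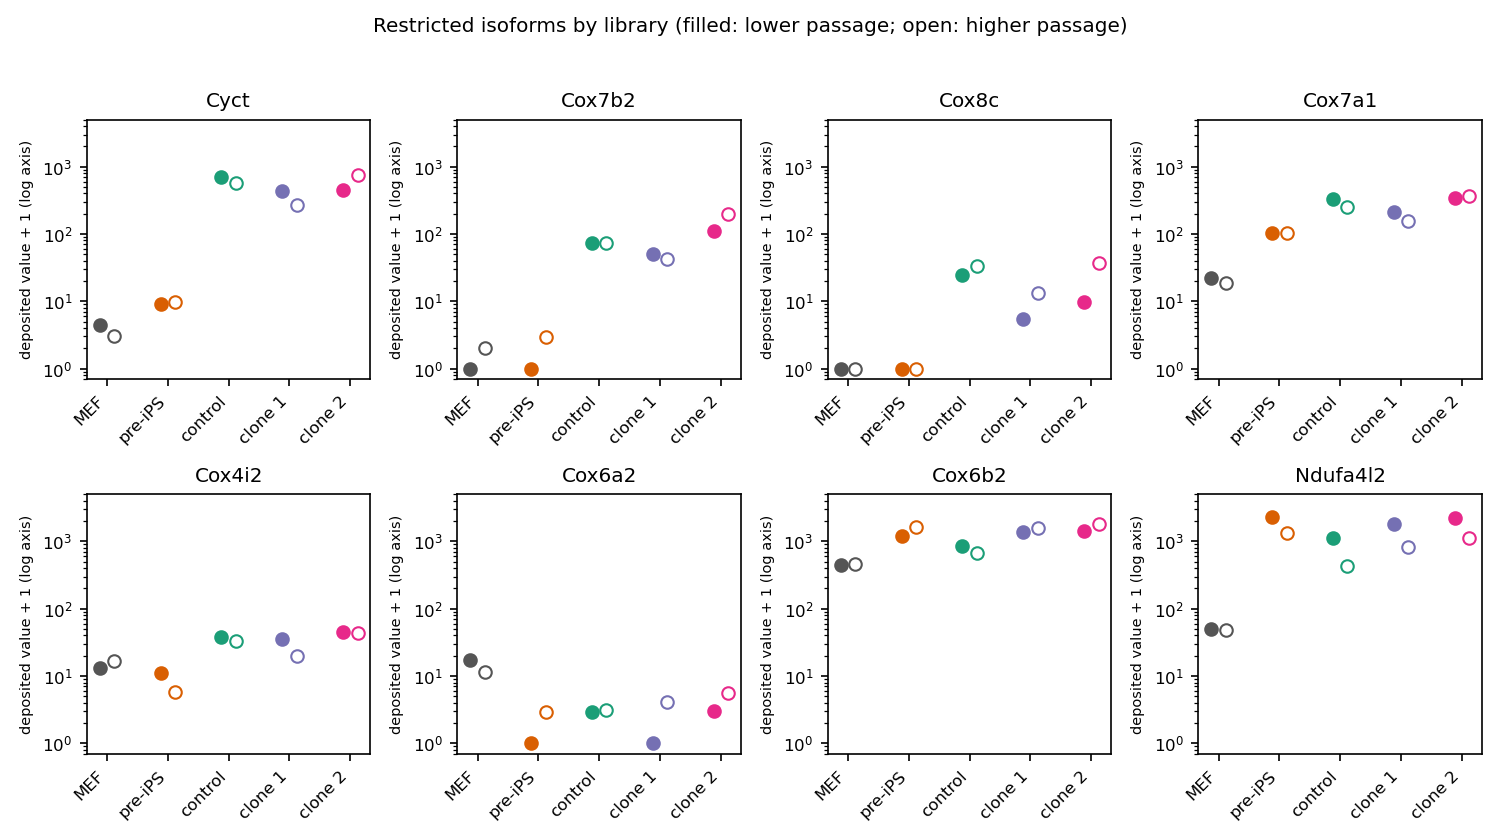
Each panel is 1 restricted isoform, with the deposited value plus 1 on a log axis and 1 point per library, filled for the lower and open for the higher passage of each line. Cyct, Cox7b2 and Cox8c lie near the bottom in MEF and pre-iPS cells, whereas Cox6b2 and Ndufa4l2 in pre-iPS cells lie beside or above the iPS lines.

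A ratio of isoform to partner within a library depends on how libraries are scaled only through the 1 added to each value, which sets the ratio where an isoform is at or near 0, as Cox8c is in MEF and pre-iPS cells. Of 9 pairs tested in 2 comparisons (18 tests), all 9 separated MEF from iPS cells without overlap and 5 separated pre-iPS from iPS cells. Of all genes taken singly, limma called 37.4% higher and 41.9% lower in MEF, and 18.7% and 20.8% in pre-iPS cells. That is another measure than the overlap of ratios, and the share of other gene pairs without overlap is not given here. These counts are thus not read as particular to the isoforms. The pairs of Cyct, Cox7b2, Cox8c and Cox6a2 are among them as descriptions. Those 14 had an exact two-sided permutation p of 0.0357, the smallest that 2 against 6 libraries can give. Their adjusted p of 0.0459 was taken over all 18 tests, the pairs fixed by the filter included. It therefore depends on those pairs and is no support for the others. The 5 pairs for pre-iPS cells were Cyct to Cycs (-5.69 on the log2 scale), Cox7b2 to Cox7b (-5.52), Cox8c to Cox8a (-4.17), Cox4i2 to Cox4i1 (-2.09) and Cox7a1 to Cox7a2 (-1.46). Those that missed the threshold were Cox6a2 to Cox6a1 (-0.96, exact p = 0.1786), Cox6b2 to Cox6b1 (-0.09, 0.8214), Cox7a2l to Cox7a2 (-0.02, 0.8571) and Ndufa4l2 to Ndufa4 (0.74, 0.3214). In MEF the ratio of Cox7a2l, which joins complexes III and IV into supercomplexes, to Cox7a2 was higher by 0.68: Cox7a2l stood at 8590 and 8666 in MEF and 6538 to 7656 in iPS cells.

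For the common genes, the comparison of MEF with iPS cells depended on what the libraries were scaled to. As deposited, 9 of the 85 genes were higher in MEF and 47 lower at an adjusted p under 0.05 (limma), where 37.4% of the 17075 genes tested were higher and 41.9% lower. With an absolute log2 change of at least 1 as well, 1 was higher (Cox6a2) and 8 lower (Cyct, Cox7b2 and Cox8c among them), against 21.6% and 26.6% of all genes. Without MEF passage 2 the count of genes higher was 4, and without MEF passage 4 it was 5. Scaled to Gapdh, Actb, Hprt and Tbp, 40 were higher and 20 lower, and with quantile normalization 3 were higher and 69 lower. The housekeeping scaling moved the median of all genes from -0.09 to 0.30, and these 4 genes themselves differed between MEF and iPS cells, Gapdh by -0.96 and Actb by 0.45. Relative to the median of all genes, the members' median was -0.12 as deposited and with housekeeping scaling and -0.44 with quantile normalization, and 24 of the 85 genes lay above the median of all genes and 61 below it as deposited. As a share of all reads on genes, the 85 took 0.73% and 0.74% in MEF and 1.21% or more in each of the 8 other libraries. Their summed values were closer, at 409700 and 414500 in MEF and 505200 to 530100 elsewhere, since the MEF columns have the larger totals. In bulk samples, fewer cells with a transcript and less of it per cell cannot be told apart.

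The common genes that were lowest in MEF came from several complexes. Cyc1, the cytochrome c1 of complex III, was at 5084 and 5058 in MEF and 9955 to 10829 in iPS cells, a difference of -1.03 ± 0.06 (limma, adjusted p = 4.52e-07). Cox7c, a small complex IV subunit, was at 3730 and 3757 against 7027 to 8000 (-0.99 ± 0.05, adjusted p = 4.28e-07). Atp5sl, a factor known for complex I assembly despite its symbol, differed by -0.96, Cycs by -0.82, Ndufs6 by -0.75 and Ndufb8 by -0.68. These 6 were lower in MEF and called under each scaling and test tried, as were Atp5b, which carries the catalytic site of the synthase (49870 and 50309 against 70507 to 81157, -0.60 ± 0.08), and Uqcrc1, a core protein of complex III (8570 and 8362 against 12411 to 14125, -0.62 ± 0.06). Cox5a was lower by -0.59 and Atp5a1 by -0.63 as deposited. Complex I differed within itself. Ndufv1, which binds NADH, was lower by -0.50 as deposited (-0.11 and not called with housekeeping scaling), and Ndufs1 by -0.24 (0.15 with that scaling).

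A smaller group stood higher in MEF. Ndufa3 was at 2074 and 2084 in MEF and 1371 to 1618 in iPS cells (0.48 ± 0.07, adjusted p = 0.000296), Ndufa13 at 3896 and 3855 against 2460 to 3250 (0.46 ± 0.07, adjusted p = 0.000317), and Ndufa2 at 3840 and 3811 against 2598 to 3119 (0.43 ± 0.08, adjusted p = 0.000668). All 3 are accessory subunits of complex I. Sdhc, a membrane anchor of complex II, was higher by 0.19, and was at -0.08 with quantile normalization, which also turned Cox6a1 (0.25 to -0.13) and Cox7a2l (0.25 to -0.08). Ndufa13 shares 28.5% of its windows of 50 bases with other genes, which limits how surely its reads were placed.

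By complex, and as deposited, 15 genes of complex I were lower and 5 higher in MEF (2 and 21 with housekeeping scaling). In complex III 6 were lower and 0 higher (3 and 3 with that scaling), and in complex V 9 were lower and 0 higher (3 and 6). In neither was a gene higher at an unadjusted p under 0.05 by limma, or called higher by edgeR (0 in each). Of the 12 common genes of complex IV 7 were lower and 2 higher (2 and 6 with housekeeping scaling). In complex II, Sdhd was lower (-0.57 ± 0.06), Sdhc higher, and Sdha (-0.03) and Sdhb (0.06) were not called. The medians were -0.14 for complex I, 0.01 for complex II, -0.49 for complex III, -0.18 for the common genes of complex IV and -0.30 for complex V, beside -0.087 over all genes tested. With housekeeping scaling the medians of complexes I, II and V turned to 0.25, 0.40 and 0.09, while that of complex III was -0.10. Within complex III, Uqcrfs1, the Rieske iron-sulphur protein, was lower by -0.62 ± 0.06 in MEF and Uqcrc2, the second core protein, by -0.44 ± 0.06, as were the small subunits Uqcr10 (-0.50) and Uqcr11 (-0.49). Uqcrb, Uqcrh and Uqcrq were not called (-0.17, -0.11 and 0.14). Uqcrc2 was the 1 gene of the complex called between pre-iPS and iPS cells, at 10144 and 10448 against 8207 to 9359 (0.22 ± 0.06, adjusted p = 0.0259). Within complex V the genes called lower in MEF encode the alpha and beta subunits (Atp5a1 and Atp5b), the central stalk (Atp5c1, -0.39, and Atp5d, -0.30), the b subunit of the peripheral stalk (Atp5f1, -0.36), the c subunit, and Atp5o (-0.16), 45.6% of whose windows of 50 bases are shared with other genes. Atp5e, also of the central stalk, was not called (-0.19, limma, adjusted p = 0.0559). Atp5h, Atp5j, Atp5j2, Atp5k and Atp5l lay between -0.19 and 0.10 and were not called either. Windows of 50 bases were also shared with other genes for Atp5l (84.8%), Atp5g2 (38.3%), Atp5f1 (37.6%) and Atp5h (36.9%). In pre-iPS cells Atp5d (0.29 ± 0.08) and Atp5h (0.18 ± 0.05) were higher than in iPS cells.

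As a share of reads on genes, which sets each complex against the larger totals of the MEF columns, complex V took the most in every library, 0.291% to 0.296% in MEF and 0.507% to 0.575% elsewhere. Complex I took 0.175% to 0.176% in MEF and 0.241% to 0.283% elsewhere, and complex III 0.071% to 0.072% against 0.133% to 0.145%. Per kilobase of annotated exon, the highest members in iPS cells were Atp5b (17910), Atp5a1 (16220), Cox8a (13740), Cox6a1 (12880) and Cox4i1 (9471). In MEF the order was Cox6a1 (15270), Cox8a (12650), Atp5b (11820) and Atp5a1 (10450). These orders rest on the length of all annotated exons together. For Atp5b that is 4237 bases, while its protein-coding transcripts hold 1867 distinct windows of 50 bases. The place of a gene can thus depend on its annotation, and the orders are descriptions with no test. All shares per kilobase rest on the same lengths. The 3 genes that encode the same c subunit of the synthase kept their proportions: per kilobase, Atp5g1 made up 7.3% to 9.4% of the 3 together, Atp5g2 45.6% to 51.4% and Atp5g3 40.9% to 45.7% over all 10 libraries.

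**Figure D3:**
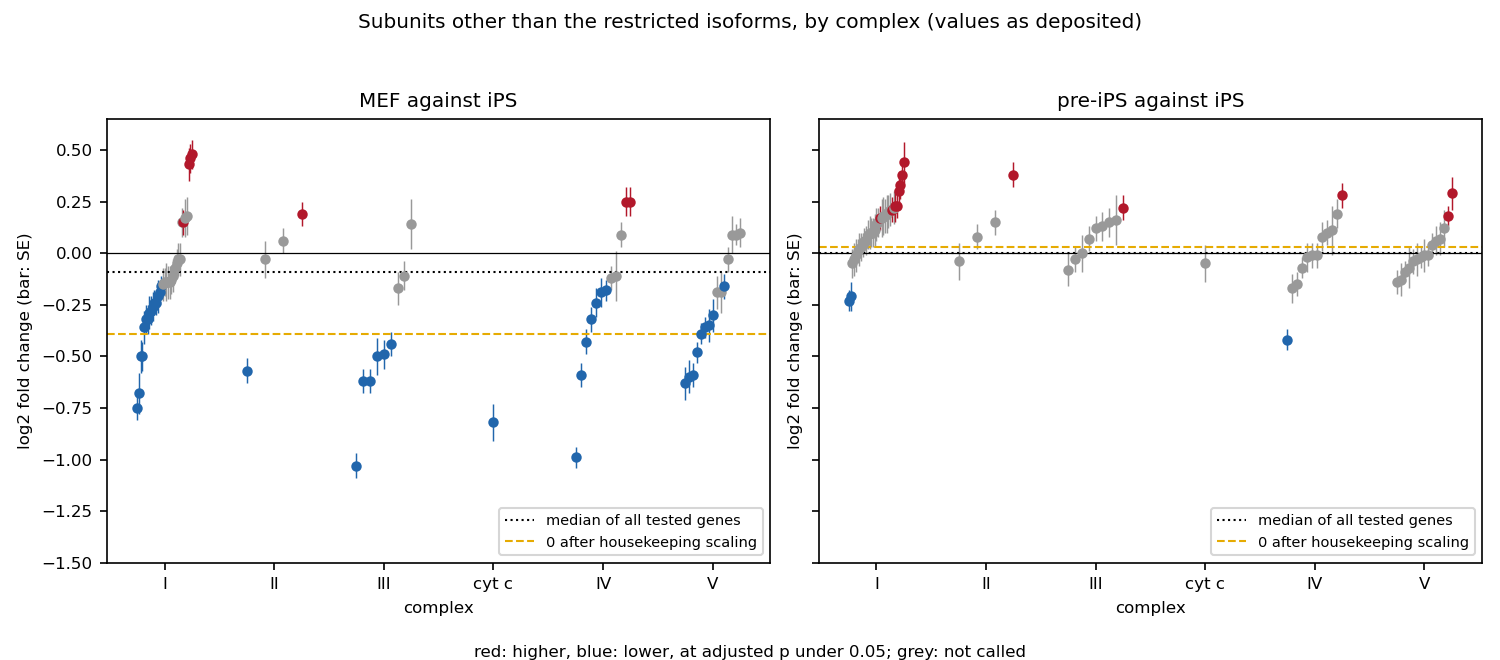
Points are the log2 fold changes of common genes of each complex, with bars of 1 SE, red for higher and blue for lower at an adjusted p under 0.05. The dotted line marks the median of all genes and the dashed line where 0 would lie after housekeeping scaling, under which scaling 13 of the 77 common genes were called lower in MEF and 39 higher.

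Pre-iPS cells were closer to iPS cells. Of the 85 genes 14 were higher and 8 lower (limma, adjusted p under 0.05), where 18.7% and 20.8% of all genes were. At an absolute log2 change of at least 1, 0 were higher (the highest fold of any member, called or not, was 0.67, and 20 were higher at an unadjusted p under 0.05 with no limit on size) and 5 lower, against 4.71% and 11.6%. With quantile normalization the counts were 9 higher and 10 lower, and with housekeeping scaling 10 and 10. The members' median was 0.07, beside 0.001 for all genes. The 5 lower by at least 1 were restricted isoforms, namely Cox4i2 and Cox7a1, and Cyct, Cox7b2 and Cox8c, which passed the filter through iPS libraries alone.

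Complex I, which has the most genes, also had the most common genes higher in pre-iPS cells. Of its 34 genes 9 were higher (26.5%) and 2 lower (5.9%), where 18.7% and 20.8% of all genes were. In complex II 25.0% were higher, and among the 77 common genes 18.2%, so the count is not read as particular to complex I. Ndufb8 was at 7304 and 5521 in pre-iPS cells and 4347 to 5317 in iPS cells (0.44 ± 0.10, adjusted p = 0.00963), Ndufb6 at 3650 and 3328 against 2448 to 3165 (0.38 ± 0.07, adjusted p = 0.00449), and Ndufa8 at 3309 and 3249 against 2354 to 2903 (0.33 ± 0.07, adjusted p = 0.00825). None of these overlapped the iPS libraries. These 3, and Ndufb4 (0.30), were not called without pre-iPS passage 5, where the count of members higher was 2. Without pre-iPS passage 25 it was 6. Sdhb, the iron-sulphur subunit of complex II, was at 5934 and 5920 against 4330 to 4818 (0.38 ± 0.06, adjusted p = 0.00117). Cox6b1, the common form of subunit 6b, was higher by 0.28.

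Cox7c was the lowest of the common genes in pre-iPS cells, at 5713 and 5449 against 7027 to 8000 (-0.42 ± 0.05, adjusted p = 0.000555), and thus lay between MEF and iPS cells. Ndufa11, an accessory subunit of complex I, was lower by -0.23 (adjusted p = 0.0106) and the X-linked Ndufa1 by -0.21 (adjusted p = 0.0446). Of the 8 core subunits followed in every comparison, Sdhb was called and 7 were not: Ndufs1 differed by 0.01, Ndufv1 by 0.11, Sdha by -0.04, Uqcrc1 by 0.12, Cyc1 by -0.03, Cox5a by -0.15 and Atp5b by -0.13. With passage as a block Cox5a was called lower (adjusted p = 0.049). Ndufs3 and Ndufs8, further core subunits of complex I, were higher by 0.23 each (adjusted p = 0.0385 and 0.016).

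Set directly against MEF, pre-iPS cells had 47 members higher and 4 lower as deposited, where 36.4% and 34.2% of all genes were. Housekeeping scaling gave 16 higher and 32 lower, with a shift of the median of all genes from 0.06 to -0.34. The highest common genes were Ndufb8 (1.12 ± 0.12), Cyc1 (1.00 ± 0.07), Atp5sl (0.83 ± 0.11), Ndufs6 (0.81 ± 0.08) and Uqcrc1 (0.74 ± 0.08), and the lowest were Ndufa13 (-0.51 ± 0.09), Ndufa3 (-0.38 ± 0.09) and Ndufa2 (-0.25 ± 0.09). This comparison shares its libraries with the 2 above.

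Between rNetrin-1-derived and control iPS cells, 1 of the 85 genes was called, Cox6b2, higher in the clones by 1.02 ± 0.16 (limma, adjusted p = 0.0146), where 2.2% of all genes were higher and 1.89% lower. No member was called lower (0 at an unadjusted p under 0.05 by limma, and 0 by edgeR), and 5 were higher at an unadjusted p under 0.05. At passage 5 Cox6b2 was 1.57 times the control in clone 1 and 1.67 times in clone 2, and at passage 25 it was 2.40 and 2.72 times, with no overlap. The call was lost without control passage 25 (0.83) and when only the iPS lines were fitted. Ndufa4l2 was higher in the clones by 0.99 ± 0.47 (adjusted p = 0.324). With passage as a block its error fell to 0.13 and it was called (adjusted p = 0.00558), since within passage 5 it was 1.60 and 1.92 times the control and within passage 25 it was 1.93 and 2.61 times. With 1 control line, the treatment and the line cannot be told apart. Cox8c (-1.16 ± 0.57, adjusted p = 0.346) and Cyct (-0.52 ± 0.30, adjusted p = 0.429) had the lowest differences from the control and were not called. The common genes differed between the clones and the control by -0.15 to 0.26, and none of the 77 was called.

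Clone 2 and clone 1, both derived with rNetrin-1, differed in 1 member, Ndufa1 (0.52 ± 0.09, limma, adjusted p = 0.0307), where 1.12% of all genes were higher in clone 2 and 0.463% lower. No member was called lower (2 at an unadjusted p under 0.05 by limma, and 0 called by edgeR). Ndufa1 is an accessory subunit of complex I on the X chromosome. It stood at 2099 and 2269 in clone 2, 1580 and 1465 in clone 1, 1517 and 1516 in control, with pre-iPS cells at 1530 and 1442 and MEF at 1547 and 1595, so that clone 2 lay above all other libraries. The call was lost without either clone 1 library or without clone 2 passage 25 (0.46 to 0.57), and when only these clones were fitted. With passage as a block, Cox7a1 (0.97, adjusted p = 0.0475) and Ndufb11 (0.38, adjusted p = 0.0379) were called too.

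Ndufb11 and Cox7b are the other X-linked members. Ndufb11 was at 4539 and 5331 in clone 2, 3636 and 3904 in clone 1, 3501 and 3813 in control, with pre-iPS cells at 4672 and 4795 and MEF at 3806 and 3743. Clone 2 and pre-iPS cells were thus the high lines, without overlap with the others. Cox7b differed between clone 2 and clone 1 by 0.06 ± 0.08. Over the 643 X-linked genes tested the median difference between clone 2 and clone 1 was 0.16, beside -0.007 for all genes. Xist, the RNA made from an inactive X, was at 21946 and 20013 in clone 2, 16030 and 22076 in pre-iPS cells, 52735 and 52989 in MEF, 317 and 282 in control and 154 and 144 in clone 1. Its part in the values of Ndufa1 and Ndufb11 was not tested.

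Members on chromosome 8 were also above clone 1 in clone 2: Cox4i1 by 0.26 ± 0.07 (15878 and 17272 against 14065 and 13577), Ndufb7 by 0.17 ± 0.08 and Ndufa13 by 0.12 ± 0.09. None was called. The median of the 860 genes tested on chromosome 8 was 0.17 in the same comparison.

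**Figure D4:**
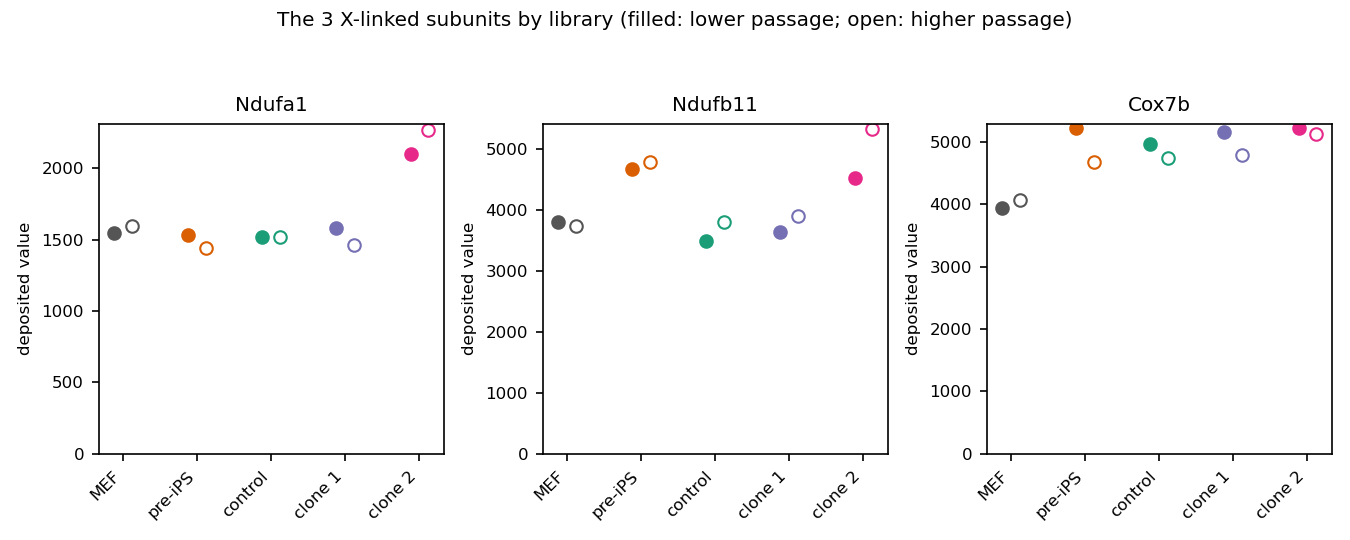
Deposited values of the 3 X-linked members, Ndufa1, Ndufb11 and Cox7b, with 1 point per library, filled for the lower and open for the higher passage. Ndufa1 is high in clone 2 (2099 and 2269), and Ndufb11 in clone 2 and pre-iPS cells.

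Passage was tested over the 8 reprogrammed libraries, with the line as a block. Of the 85 genes 2 were higher at passage 25 (Cox8a and Sdha) and 1 lower (Ndufa4l2), where 3.31% of all genes were higher and 7.63% lower. Without the replicate block 0 were called in either direction (5 higher and 3 lower at an unadjusted p under 0.05 by limma). Ndufa4l2 fell by 1.07 on the log2 scale (SE 0.10, limma, adjusted p = 0.00265). Its passage 25 value was 58.2% of that at passage 5 in pre-iPS cells, 37.7% in control, 45.4% in clone 1 and 51.1% in clone 2, so that it fell in all 4 lines.

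Cox8a rose from 8807 to 9436 in pre-iPS cells, 7695 to 9434 in control, 7743 to 9453 in clone 1 and 7355 to 9338 in clone 2 (0.26 ± 0.05, limma, adjusted p = 0.0294). Sdha, the flavoprotein of complex II, rose from 9673 to 11701 in pre-iPS cells, 10340 to 11384 in control, 9801 to 11359 in clone 1 and 11006 to 11964 in clone 2 (0.19 ± 0.05, adjusted p = 0.0497). Sdha was lost when any 1 line was left out with both its libraries, and so was Cox8a. Without the control line, 3 members were lower at passage 25, while without any other line 1 was. The members' median between passages was -0.01.

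Of the 10 hypoxia-responsive genes listed, 8 were lower at passage 25 and 1, Hif1a, higher (0.53 ± 0.07). Egln3, an oxygen sensor that is itself induced by low oxygen, was lower by -2.24 ± 0.06, from 11538 to 2498 in pre-iPS cells, 6433 to 1523 in control, 18553 to 3745 in clone 1 and 13692 to 2678 in clone 2. Ankrd37 was lower by -1.87 ± 0.13 and the glucose transporter gene Slc2a1 by -1.27 ± 0.16. In MEF 6 of the 10 were lower than in iPS cells and 2 higher, where 41.9% of all genes were lower and 37.4% higher. In pre-iPS cells 0 were called (0 at an unadjusted p under 0.05 by limma and 0 by edgeR), where 20.8% of all genes were lower and 18.7% higher. With passage as a block 4 of the 10 were lower and 1 higher in pre-iPS cells, and the share of all genes under that setting is not given here. Epas1, a hypoxia-inducible factor, was the 1 gene of the list called between rNetrin-1 clones and control (1.26 ± 0.26, adjusted p = 0.0384). What these genes have to do with the values of Ndufa4l2 was not tested, and the oxygen in the cultures is not given in the sources used here.

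**Figure D5:**
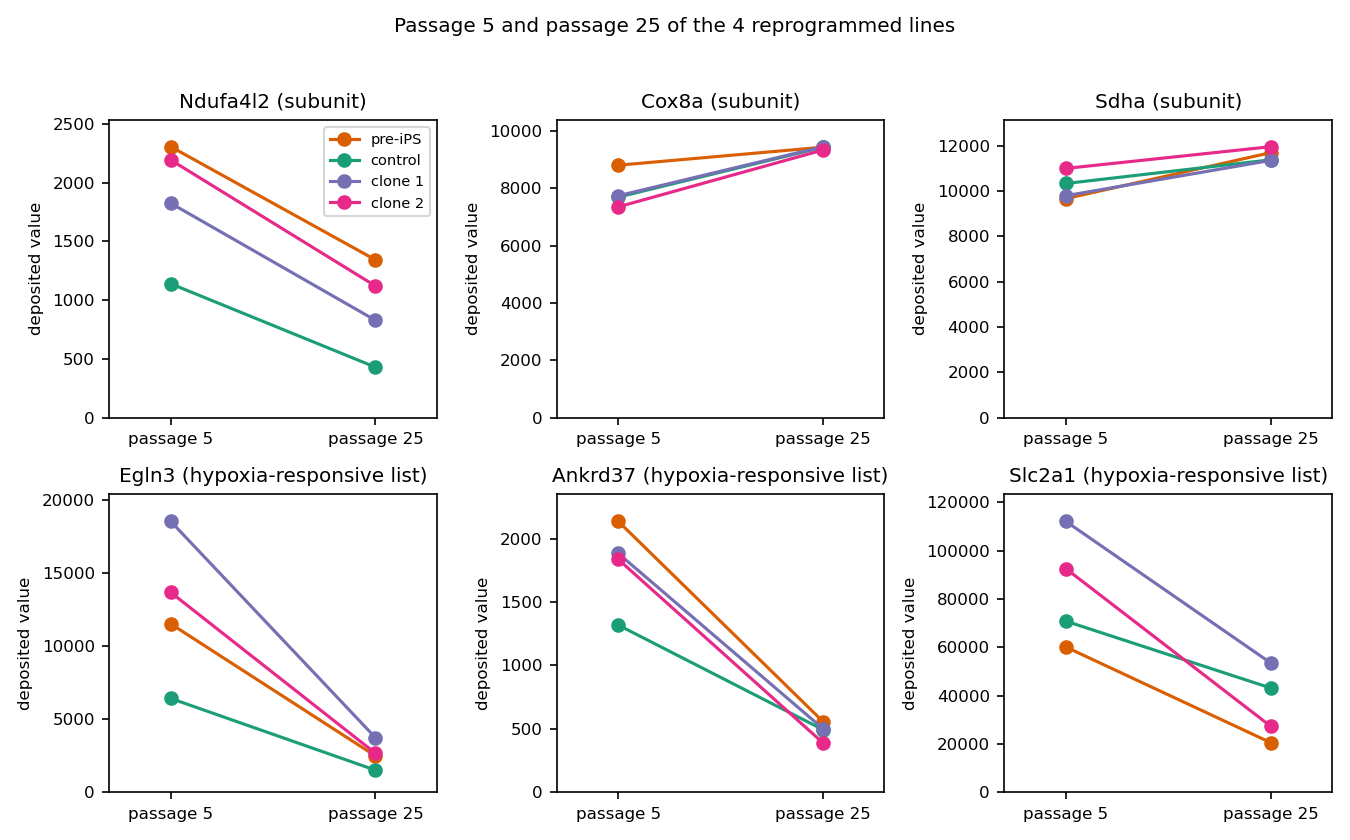
Deposited values at passages 5 and 25, with 1 line per reprogrammed cell line, for the 3 members called between passages and for the 3 hypoxia-responsive genes with the largest change. Ndufa4l2, Egln3, Ankrd37 and Slc2a1 are lower at passage 25 in all 4 lines, and Cox8a and Sdha are higher.

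Genes that serve the same complexes were counted from lists, to be read against 37.4% of all genes higher and 41.9% lower in MEF, and 18.7% and 20.8% in pre-iPS cells. Of 45 assembly factors, which build the complexes but do not stay in them, 17 were lower and 8 higher in MEF than in iPS cells (9 and 23 with housekeeping scaling), with Ndufaf6 (-1.35), Selrc1 (-1.15) and Nubpl (-1.12) lowest. In pre-iPS cells 15 were higher and 2 lower than in iPS cells, with Cox19 (0.71 ± 0.09), Taco1 (0.60 ± 0.10) and Ndufaf3 (0.48 ± 0.11) highest. Of the 13 citrate cycle genes 9 were lower and 2 higher in MEF (4 and 4 with housekeeping scaling), led by Suclg2 (-1.24 ± 0.09) and Idh3a (-0.93 ± 0.08), and in pre-iPS cells 1, Idh3b, was higher (0.20 ± 0.06). Of the 4 subunits and partners that the symbols leave out, Ndufab1, 2010107E04Rik and the synthase inhibitor Atpif1 were lower in MEF (-0.35, -0.19 and -0.40), and with housekeeping scaling 1 of the 4 was higher and 0 lower (0 also at an unadjusted p under 0.05).

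Of 14 regulators of respiratory genes and mitochondrial DNA, 9 were lower and 2 higher in MEF than in iPS cells (6 and 4 with housekeeping scaling), and 7 were lower in pre-iPS cells. Esrrb, an estrogen-related receptor that also serves the pluripotency network, stood at 16.5 and 13.8 for MEF, 31.6 and 15.4 for pre-iPS cells, 2946 and 1626 for control, 1617 and 900.2 for clone 1 and 5094 and 7388 for clone 2, and was the 1 regulator called between the clones (2.35 ± 0.42, adjusted p = 0.0401). Ppargc1b, a coactivator of respiratory genes, was lower in MEF by -1.96 ± 0.22. Gabpa, part of the factor that binds CCGGAAG, was lower in pre-iPS cells by -0.59 ± 0.07. Ppargc1a was higher at passage 25 than at passage 5 by 1.14 ± 0.16 and Esrra lower by -0.39 ± 0.07, while 82 of the 85 subunits were not called between passages.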

How the data were processed

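Poly(A) RNA of 10 libraries was sequenced as single reads of 50 bases. Per the submitters' processing notes, CASAVA 1.8.2, FastQC, TopHat2 2.0.8b, HTSeq 0.5.3p9 and edgeR were used on build mm10; annotation and strand setting are not given in the sources used here. The deposited values are a signal: pseudo-counts, read counts that the authors equalized between libraries with edgeR. Whole reads were recovered from their steps (100% of values within 0.05 read). Members and lists were chosen with earlier results of these data known. The named genes were every isoform and partner, the 5 highest and 5 lowest other members called per comparison, 8 core subunits, members on chromosomes X and 8, up to 3 called genes per other list and the 3 genes most like each isoform; Sdhd, Ndufs3, Ndufs8 and the further genes of complexes III and V were added after their values were seen. The values of 1 member are counted but not reported here.

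log2(value + 1) of 17075 genes was fitted with limma 3.58.1 (R 4.3.3) with 1 mean per line, or line as a block for passage; p-values were Benjamini-Hochberg adjusted over all genes. Isoform ratios were tested by exact permutation. Passage numbers pair the libraries: deviations of the same passage correlated in all 6 pairs of lines (r 0.235 to 0.504). The alternatives were pseudocount, filter, scaling, samples fitted, block, edgeR 4.0.16 on recovered reads and leaving out libraries. Gene positions and exon lengths are from GENCODE on GRCm38. The script was tested on simulated data.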

Additional observations from a re-analysis of the deposited data

Results flagged for a closer look

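Ndufa1 differed between the 2 rNetrin-1-derived clones: clone 2 less clone 1 was 0.52 on the log2 scale by limma's test of the difference between the clones, and clone 1 less control was 0.00. The values stood at 2099 and 2269 in clone 2 and at 1580 and 1465 in clone 1. No line has the 4 libraries needed to look for a library far from its group.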

How the results depend on the processing

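Of 70 calls of named genes, 937 of 1032 values under the alternatives kept their direction and side of the threshold, 84 lost the call and 11 turned. Each count below is of members called, and the cause of each change was not tested. With housekeeping scaling, MEF against iPS gave 40 higher and 20 lower, and pre-iPS against MEF 16 and 32, which turned Cox7b to 0.07, Ndufa4 to 0.21 and Ndufs1 to 0.15 in MEF, and in pre-iPS against MEF Cox6b1 to -0.23, Cox7b to -0.11, Ndufb11 to -0.09, Ndufs1 to -0.17 and Sdhb to -0.09. With quantile normalization 3 were higher in MEF, 9 in pre-iPS against iPS and 5 at passage 25, and Cox6a1 (-0.13), Cox7a2l (-0.08) and Sdhc (-0.08) turned in MEF. With an absolute log2 change of at least 1 there were 1 higher and 8 lower in MEF, 0 and 5 in pre-iPS against iPS, 5 and 1 in pre-iPS against MEF, 0 higher in clone 2 against clone 1 and 0 higher at passage 25. With only the lines compared, 9 were higher in pre-iPS against iPS, 0 in the rNetrin-1 clones and 0 in clone 2 (0 X-linked). Passage as a replicate block gave 2 higher in the rNetrin-1 clones and 3 in clone 2 (2 X-linked), and 20 higher and 9 lower in pre-iPS against iPS. Beside those named in the report it added Cox5a, Cox6a1, Ndufb11, Ndufb3, Ndufc2 and Ndufv3 in the last comparison, and it changed no other call of a member among the reprogrammed lines. No replicate block gave 0 higher and 0 lower between passages. A pseudocount of 5 gave 2 higher in clone 2, and a pseudocount of 0.5 or no filter gave 1 higher at passage 25.

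Leaving out 1 library at a time gave 4 to 11 higher in MEF (4 and 5 without either MEF library), 2 to 16 higher in pre-iPS against iPS (2 without pre-iPS passage 5), 0 to 1 in the rNetrin-1 clones (0 without control passage 25), 0 to 2 in clone 2 (X-linked 0 to 2), and 0 to 1 higher and 1 to 3 lower at passage 25 (3 without either control library). With a library left out, the lone passage of its line was assumed to vary like the other lines. In the test of passage, both libraries of that line were left out instead. With 2 libraries a line, small differences may have been missed, and Cox8c, Cox6a2 and Cox4i2 rest on few reads.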
